A study of Mus musculus with 4 samples.

Results

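Immune marker genes were followed in RNA of mouse bulge cells, the follicle niche that houses hair stem cells. The set held 39 genes of the 55536 in the count table, listed by name: 1 gene of all leukocytes (Ptprc), 16 genes of T cells, 9 of Langerhans cells and 13 of macrophages. All 39 were found by symbol. The knockout group was 2 libraries from Alk1 endothelial knockout mice, which carried Cdh5CreERT2 and Alk1 flox/flox, so that Cre acted in endothelium. The control group was 2 libraries from Cre-negative littermates. Both groups were on a C57BL/6 background, received tamoxifen at 100 µg per g of body weight at postnatal day 17 and were collected at postnatal day 20. The labels do not say how bulge cells were isolated or whether a library pools several mice. The p-values therefore measure the spread between these samples.

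Mouse epidermis and hair follicles hold resident leukocytes of a few kinds. Dendritic epidermal T cells carry a γδ T cell receptor of nearly invariant sequence and sit among keratinocytes. Langerhans cells are antigen-presenting cells of the epidermis that carry langerin, MHC class II, the macrophage colony-stimulating factor receptor and the F4/80 antigen. Dermal macrophages are marked by the mannose receptor, the scavenger receptor CD163 and the complement C1q chains. None of these is a bulge keratinocyte. In bulk RNA, fewer cells of a type and less RNA per cell cannot be told apart.

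Libraries held from 16326906 to 29130974 counts. Bulge keratin RNA was high in each of them, with Krt15 at 53765 to 61788 TPM. TPM is the count divided by exon length and scaled to the same total in each library. The basal keratin Krt5 measured 33896 to 44229 TPM. Krt10, a keratin of interfollicular differentiation, was also present and uneven. It measured 5632 and 2443 TPM in knockouts, against 10317 and 2964 TPM in controls. The targeted gene Acvrl1 measured 17.9 and 23.1 CPM in knockouts, against 21.6 and 24.3 CPM in controls, where CPM is the count scaled by the effective library size. Deletion was directed at endothelium, so this level does not check the labels.

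Leukocyte RNA was present at trace level in all 4 libraries. Ptprc, which encodes the CD45 phosphatase of all leukocytes, measured 2.48 and 3.07 CPM in knockouts 1 and 2, against 2.75 and 2.37 CPM in controls 1 and 2. The groups overlapped, with a log2 fold change of 0.12 ± 0.33 (SE, as for each value after ±; edgeR adjusted p = 0.90). Per length, Krt5 exceeded Ptprc 105762-fold and 69312-fold in knockouts, against 77946-fold and 107636-fold in controls. These ratios depend on the exon lengths used, 18313 bases for Ptprc and 2197 for Krt5, and are smaller without them. In CPM, Krt5 measured 31494 and 25488 in knockouts, against 25749 and 30614 in controls. Of the 39 genes, 2 had no count in any library, 4 had 1 to 9 counts in all, 7 had more but too few to be tested, and 26 were tested.

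Epcam and Mfge8 carried most of the signal of the 39 genes. They held 67.8% and 70.4% of it in knockouts, against 64.0% and 69.1% in controls. Epcam, an epithelial adhesion molecule, and Mfge8, a secreted bridging protein of dying-cell clearance, are made by epithelial and stromal cells as well as by Langerhans cells. The same holds for Thy1 (fibroblasts), Ctla2a (keratinocytes and endothelium) and Cd68 (lysosomes of many cells), so these 5 genes were also set aside. The other 34 genes took 0.0132% and 0.0139% of all counts in knockouts, against 0.0134% and 0.0112% in controls, and on that scale the groups overlapped. Scaled by effective library size they summed to 135 and 141 CPM in knockouts, against 131 and 110 CPM in controls, and did not overlap. All 39 genes summed to 486 and 545 CPM in knockouts, against 406 and 415 CPM in controls, also with no overlap.

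By list, the Langerhans cell sum was highest, the T cell sum next and the macrophage sum lowest. The lists differ in number and kind of genes, so this order does not rank the cell types. Csf1r and Adgre1 of the macrophage list are also carried by Langerhans cells. Without the 5 shared genes, the 7 Langerhans cell genes summed to 114 and 134 TPM in knockouts, against 140 and 110 TPM in controls. Class II genes supplied 108 and 129 TPM of it in knockouts, against 131 and 104 TPM in controls. The 14 T cell genes summed to 76.7 and 61.5 TPM in knockouts, against 71.3 and 61.4 TPM in controls. Trbc2 alone made up 63.2% and 63.5% of that sum in knockouts, against 73.7% and 72.4% in controls. Without it, a choice made after the values were seen, the other 13 T cell genes summed to 28.2 and 22.5 TPM in knockouts, against 18.7 and 16.97 TPM in controls, with no overlap. The 12 macrophage genes summed to 12.7 and 11.0 TPM in knockouts, against 13.8 and 11.5 TPM in controls. The ranges of the 3 lists did not overlap one another across the libraries, with Trbc2 or without it. With Trbc2, knockouts and controls overlapped on this scale within each list. On the CPM scale, which does not divide by length, the T cell sum was 34.9 and 28.98 in knockouts, against 25.5 and 22.7 in controls, and those groups did not overlap.

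**Figure D1:**
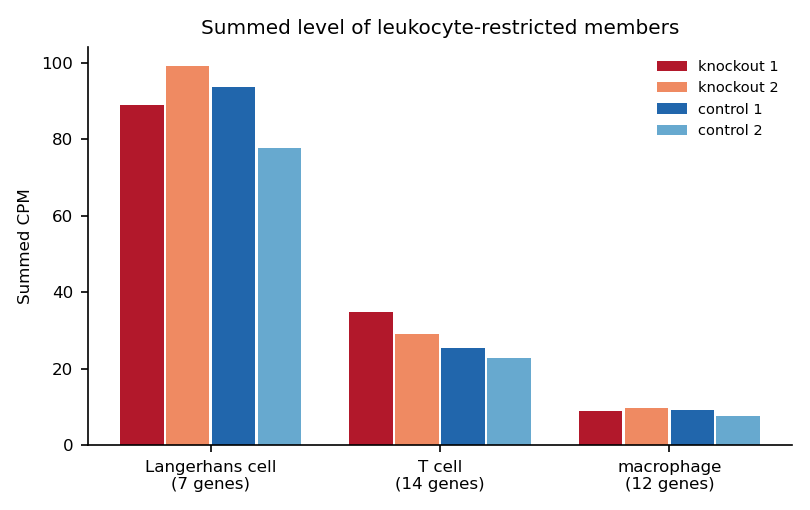
Summed CPM of the 7 Langerhans cell, 14 T cell and 12 macrophage genes, without the 5 genes that other skin cells also make. Each bar is 1 library; the T cell sum was 34.9 and 28.98 CPM in knockouts 1 and 2, against 25.5 and 22.7 CPM in controls 1 and 2.

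**Figure D2:**
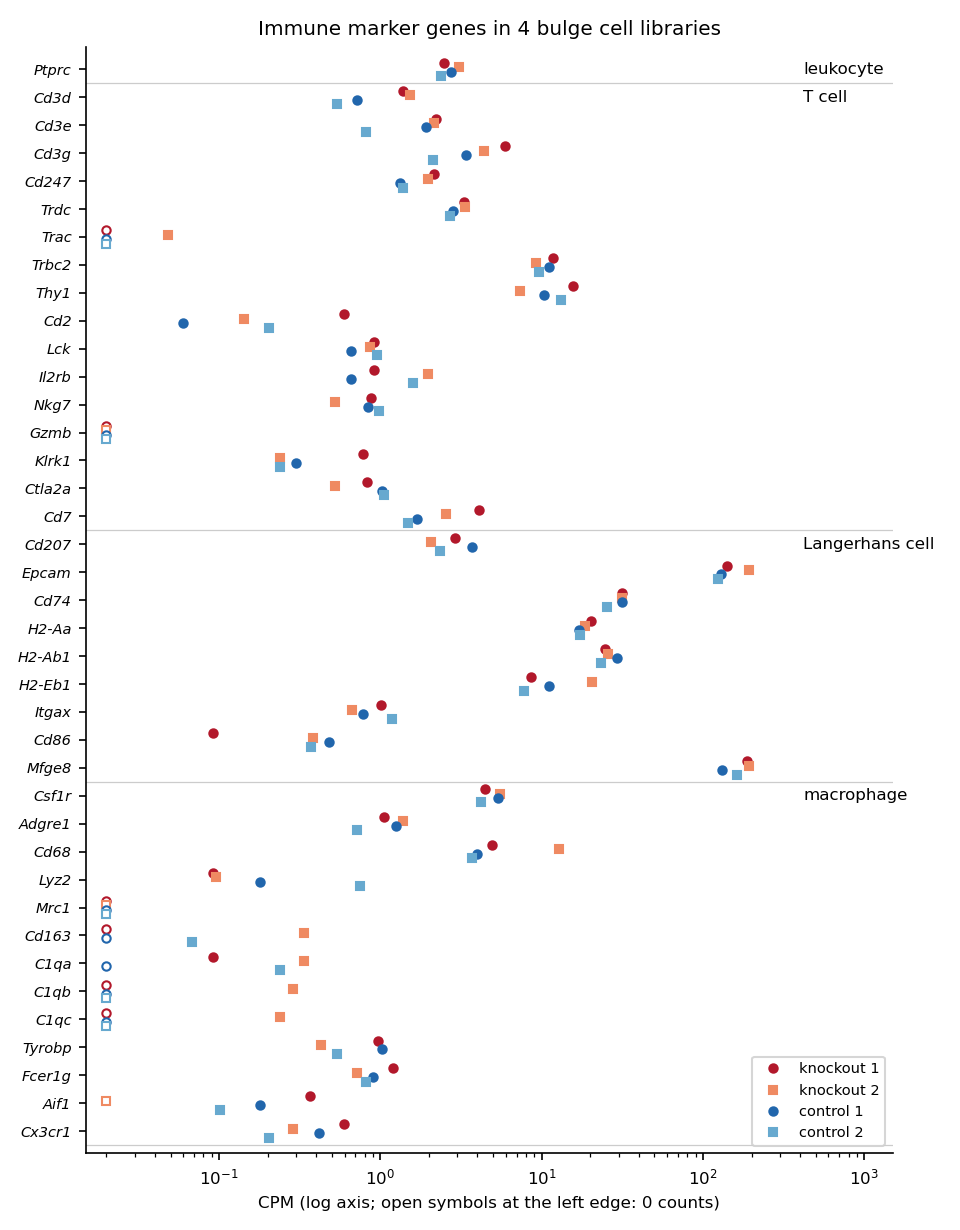
CPM of each of the 39 genes on a log axis, 1 symbol per library, with open symbols at the left edge for 0 counts. Epcam and Mfge8 lie above 100 CPM in every library, while Gzmb and Mrc1 have no count in any.

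The T cell receptor genes showed δ and γ chains with almost no α chain. T cells carry either an αβ or a γδ receptor, and each chain joins a variable to a constant segment. Trdc, the δ constant segment (ENSMUSG00000104876, GRCm38 chromosome 14, 54142851 to 54148868), had 72 and 70 counts in knockouts, against 47 and 80 in controls. Trac, the α constant segment (ENSMUSG00000076928, chromosome 14, 54220521 to 54224206), had 0 and 1 counts in knockouts, against 0 and 0 in controls. A count of 0 allows up to 3 counts, or 0.138 CPM in knockout 1, 0.180 CPM in control 1 and 0.102 CPM in control 2. The exact 95% Poisson interval for knockout 2 reached 0.267 CPM. These limits cover counting error only. In CPM, Trdc measured 3.31 and 3.35 in knockouts, against 2.81 and 2.71 in controls.

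The coding starts of both constant segments are shown because the contrast between them rests on telling their reads apart. Each line gives the first 90 coding bases of the GENCODE M21 transcript on the plus strand of GRCm38, 5′ to 3′ in lower case, with nothing marked.
Trdc (chr14:54142851-54142940): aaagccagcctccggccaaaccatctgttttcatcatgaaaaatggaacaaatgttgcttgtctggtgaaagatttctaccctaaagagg
Trac (chr14:54220521-54220610): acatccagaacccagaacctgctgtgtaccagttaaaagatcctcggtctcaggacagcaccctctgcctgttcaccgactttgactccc
Of the 3766 different 31-base words in Trdc, 0 occur in Trac.

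Among the variable segments, the counts lay on the pair used by dendritic epidermal T cells. All T cell receptor segments in the annotation were examined after the values of the constant segments were seen. Trdv4, the δ variable segment of dendritic epidermal T cells, had 21 and 18 counts in knockouts, against 19 and 23 in controls, and no other gene named Trdv had a count. Tcrg-V5, their γ variable segment, had 13 and 7 counts in knockouts, against 5 and 10 in controls. It held 35 of the 46 counts of all γ variable segments. Tcrg-C1, the γ constant segment that Tcrg-V5 joins, had 37 and 32 counts in knockouts, against 22 and 22 in controls. It is ambiguous in part, since 51.0% of its 31-base words occur in other γ constant segments.

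Both variable segments had more counts than all α and all β variable segments together, and their coding starts are printed as the sequences that mark this receptor. The first 90 coding bases cross an intron in each, so the span is longer than the sequence.
Trdv4 (chr14:54075004-54075260): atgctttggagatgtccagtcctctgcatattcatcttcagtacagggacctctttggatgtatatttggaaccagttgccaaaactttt
Tcrg-V5 (chr13:19192278-19192474): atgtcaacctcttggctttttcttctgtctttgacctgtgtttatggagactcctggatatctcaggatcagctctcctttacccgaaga
Neither shares a 31-base word with any other annotated transcript.

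The β chain stood apart from this pattern. Trbc2, a β constant segment (chromosome 6, 41546730 to 41548352), had 256 and 193 counts in knockouts, against 186 and 286 in controls. In TPM it measured 48.4 and 39.03 in knockouts, against 52.5 and 44.4 in controls, and its TPM was 15.4 to 22.1 times that of Trdc across the libraries. That ratio depends on the exon lengths used, 692 bases for Trbc2 and 3865 for Trdc, while their coding lengths are 518 and 458. In counts the gap was smaller, with Trdc at 72 and 70 in knockouts, against 47 and 80 in controls. All β variable segments together had 0 and 5 counts in knockouts, against 2 and 4 in controls. All α variable segments had 3 counts in all, each in control 2. These 3 were on Trav15-2-dv6-2, which is named as both an α and a δ variable segment. The joining segment Trbj2-7 had 12 and 13 counts in knockouts, against 12 and 17 in controls. The log2 fold change of Trbc2 was 0.02 ± 0.22 (edgeR adjusted p = 0.98).

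The other β constant segment, Trbc1, had 20 and 19 counts in knockouts, against 10 and 23 in controls. The split between them is uncertain: 48.5% of the 31-base words of Trbc2 occur in Trbc1. Their coding sequences are identical for the first 259 of 518 bases and differ at 23 positions in all. The start they share is shown to make that plain.
Trbc2 (chr6:41546730-41546819): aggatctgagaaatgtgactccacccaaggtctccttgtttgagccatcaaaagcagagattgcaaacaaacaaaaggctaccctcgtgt
Trbc1 (chr6:41538218-41538307): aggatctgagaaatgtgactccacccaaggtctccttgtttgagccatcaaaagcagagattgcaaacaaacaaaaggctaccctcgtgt
Their sum was 276 and 212 counts in knockouts, against 196 and 309 in controls.

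**Figure D3:**
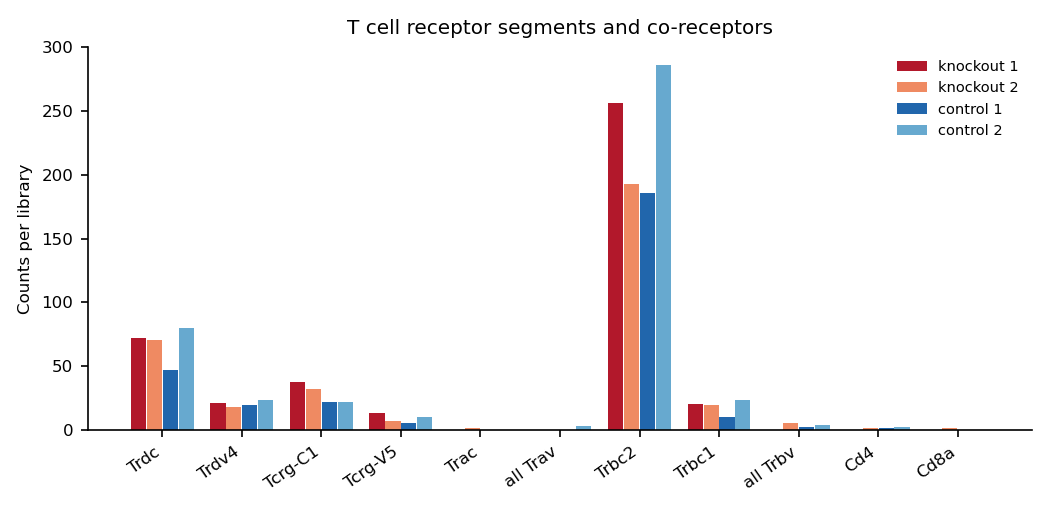
Counts per library of T cell receptor constant and variable segments and of the co-receptors Cd4 and Cd8a, 1 bar per library. Trdc had 72 and 70 counts in knockouts and 47 and 80 in controls, while Trac had 1 count in all.

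The CD3 chains, which carry the receptor's signal, were each higher in both knockouts than in both controls without passing the test. Among all tested genes, taken singly, 21.3% were higher in both knockouts and 23.6% were lower in both. Cd3g (chromosome 9, 44969572 to 44980431) measured 5.88 and 4.41 CPM in knockouts, against 3.41 and 2.13 CPM in controls. Its log2 fold change was 0.91 ± 0.36, with a 95% interval of 0.04 to 1.78 (edgeR adjusted p = 0.46). Cd3d, its neighbour (44981786 to 44987339), measured 1.38 and 1.53 CPM in knockouts, against 0.72 and 0.54 CPM in controls. The log2 fold change of Cd3d was 1.22 ± 0.44, with a 95% interval of 0.16 to 2.28 (edgeR adjusted p = 0.43).

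Cd3e (44998740 to 45009627) measured 2.21 and 2.16 CPM in knockouts, against 1.92 and 0.81 CPM in controls, so the gap rested mainly on control 2. Its log2 fold change was 0.72 ± 0.49, and 0.21 without control 2. Cd247, the ζ chain, measured 2.16 and 1.96 CPM in knockouts, against 1.32 and 1.39 CPM in controls (log2 fold change 0.60 ± 0.36, edgeR adjusted p = 0.56). The antisense gene Pou2f1 overlaps 56.4% of the exon bases of Cd247 and had 2292 counts against 151, so strand assignment bears on the Cd247 values. The 4 chains summed to 11.6 and 10.1 CPM in knockouts, against 7.36 and 4.88 CPM in controls. Trdc, the receptor chain itself, gave a log2 fold change of 0.27 ± 0.30, with a 95% interval of -0.46 to 1.00 (edgeR adjusted p = 0.75).

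T cell surface and cytotoxic genes ranged from no count to a few CPM, Thy1 aside. Cd7, a surface glycoprotein of T and NK cells, measured 4.09 and 2.54 CPM in knockouts, against 1.68 and 1.49 CPM in controls. The groups did not overlap, and the log2 fold change was 1.07 ± 0.38 (95% interval 0.14 to 2.00, edgeR adjusted p = 0.43). Lck, the kinase that starts receptor signalling, measured 0.92 and 0.86 CPM in knockouts, against 0.66 and 0.95 CPM in controls. Il2rb, the receptor chain shared by interleukins IL-2 and IL-15, measured 0.92 and 1.96 CPM in knockouts, against 0.66 and 1.59 CPM in controls. For both genes the groups overlapped.

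Gzmb, the granule protease granzyme B, had no count in any library. Nkg7, a granule protein of cytotoxic cells, measured 0.87 and 0.53 CPM in knockouts, against 0.84 and 0.98 CPM in controls. Klrk1, the NKG2D receptor, had 17 and 5 counts in knockouts, against 5 and 7 in controls, and Cd2, an adhesion molecule, had 13 and 3, against 1 and 6. Both were too low to be tested, and in both genes knockout 1 was the highest library. Thy1 measured 15.5 and 7.33 CPM in knockouts, against 10.3 and 13.2 CPM in controls (log2 fold change -0.04 ± 0.37), with the knockouts at both ends of the range. Ctla2a, a cathepsin inhibitor, was the 1 tested gene lower in both knockouts, at 0.83 and 0.53 CPM, against 1.02 and 1.05 CPM in controls. Its log2 fold change was -0.61 ± 0.47 (edgeR adjusted p = 0.65), and 37.8% of its 31-base words occur in other genes, Ctla2b among them.

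Langerhans cell RNA was marked by langerin and MHC class II. Cd207, which encodes langerin, a lectin that these cells carry, measured 2.90 and 2.06 CPM in knockouts, against 3.71 and 2.34 CPM in controls. The groups overlapped, and the log2 fold change was -0.27 ± 0.39, with a 95% interval of -1.22 to 0.67 (edgeR adjusted p = 0.81). None of its 31-base words occurs in another gene. Itgax, the integrin CD11c, measured 1.01 and 0.67 CPM in knockouts, against 0.78 and 1.19 CPM in controls. Cd86, a costimulatory ligand, had 2 and 8 counts in knockouts, against 8 and 11 in controls, and was not tested.

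Class II genes made up most of the sum of the 7 Langerhans cell genes, which leaves out Epcam and Mfge8. Cd74, the invariant chain that guides class II molecules, measured 53.1 and 54.6 TPM in knockouts, against 61.0 and 48.1 TPM in controls. H2-Ab1, a β chain, measured 27.5 and 29.3 TPM in knockouts, against 37.2 and 28.9 TPM in controls. H2-Aa, its α partner, measured 15.1 and 14.3 TPM in knockouts, against 14.6 and 14.4 TPM in controls. These 3 genes gave log2 fold changes of 0.14 ± 0.16, -0.06 ± 0.16 and 0.18 ± 0.16, with 95% intervals inside -0.46 and 0.57 (edgeR adjusted p = 0.74, 0.91 and 0.68).

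H2-Eb1, the β chain of the other class II isotype, did not follow the same library pattern. It measured 12.6 and 30.7 TPM in knockouts, against 18.6 and 12.6 TPM in controls, so knockout 2 stood above the other libraries. Per length, H2-Eb1 was 0.46 and 1.05 times H2-Ab1 in knockouts, against 0.50 and 0.44 times in controls. H2-Eb1 gave a log2 fold change of 0.63 ± 0.43 (edgeR adjusted p = 0.61), and -0.12 without knockout 2.

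Promoters of the pair H2-Aa and H2-Eb1 are shown because class II genes share control elements in them, known as the X box and the Y box. Of the 39 genes, 25 had an entry in the RefSeq promoter table (GRCm38.p6), which spans 250 bases before to 50 after the start. Capitals mark CTGATTGG, a Y box sequence, and GCAACT, found in both X box regions, searched on both strands. The motif letters were chosen with these sequences in view.
H2-Aa (chr17:34287774-34288073, minus strand): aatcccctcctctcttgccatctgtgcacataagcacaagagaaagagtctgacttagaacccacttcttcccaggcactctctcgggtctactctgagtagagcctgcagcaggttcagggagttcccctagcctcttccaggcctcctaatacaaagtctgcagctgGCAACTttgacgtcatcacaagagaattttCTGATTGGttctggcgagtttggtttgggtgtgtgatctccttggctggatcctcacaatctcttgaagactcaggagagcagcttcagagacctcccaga
H2-Eb1 (chr17:34305617-34305916, plus strand): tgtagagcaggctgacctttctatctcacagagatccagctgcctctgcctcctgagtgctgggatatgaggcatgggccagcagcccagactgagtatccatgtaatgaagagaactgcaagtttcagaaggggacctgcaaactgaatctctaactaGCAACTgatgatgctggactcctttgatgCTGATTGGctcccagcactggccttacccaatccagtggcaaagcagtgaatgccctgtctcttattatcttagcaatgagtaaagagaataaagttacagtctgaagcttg
CTGATTGG began 51 bases before the start in H2-Aa and 62 before it in H2-Eb1. GCAACT began 81 and 91 bases before it. Of 32851 promoters in the table, 4.10% held CTGATTGG, 10.9% held GCAACT and 0.466% held both. A match describes letters only, and no binding was measured.

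**Figure D4:**
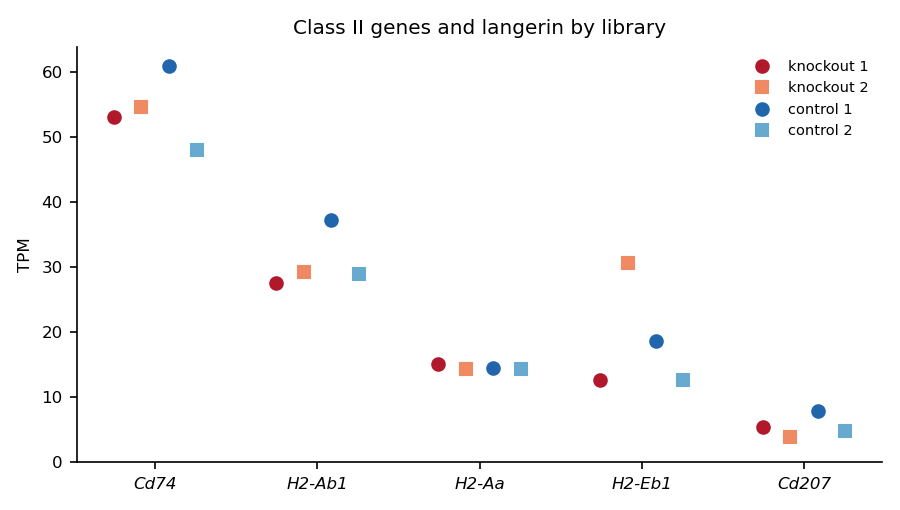
TPM of class II genes and Cd207, 1 symbol per library. H2-Eb1 was 30.7 TPM in knockout 2, against 12.6 to 18.6 TPM in the other 3 libraries, while H2-Aa ran from 14.3 to 15.1 TPM.

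Epcam measured 142 and 192 CPM in knockouts, against 129 and 125 CPM in controls (log2 fold change 0.40 ± 0.17, 95% interval -0.01 to 0.80, edgeR adjusted p = 0.46). Mfge8 measured 187 and 192 CPM in knockouts, against 131 and 162 CPM in controls (log2 fold change 0.37 ± 0.14, edgeR adjusted p = 0.45). In CPM both genes were higher in both knockouts, and neither passed. In TPM the groups overlapped for Epcam. Per length, Epcam exceeded Cd207 in every library, at 184 and 255 TPM against 5.42 and 3.95 TPM in knockouts, and at 192 and 180 TPM against 7.96 and 4.87 TPM in controls.

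Defining genes of dermal macrophages were at or near 0. Mrc1, the mannose receptor, had no count in any library. Cd163, a haemoglobin scavenger receptor, had 0 and 7 counts in knockouts, against 0 and 2 in controls. The complement genes C1qa, C1qb and C1qc, which lie side by side on chromosome 4, had 2 and 18 counts together in knockouts, against 0 and 7 in controls. C1qb and C1qc had counts in knockout 2 alone, with 6 and 5. Lyz2, lysozyme of myeloid cells, had 2 and 2 counts in knockouts, against 3 and 22 in controls, and 32.8% of its 31-base words occur in Lyz1.

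Other genes of the macrophage list were low but mostly detected. Csf1r, the receptor of macrophage colony-stimulating factor and of IL-34, measured 4.46 and 5.51 CPM in knockouts, against 5.33 and 4.23 CPM in controls (log2 fold change 0.07 ± 0.29, edgeR adjusted p = 0.94). The antisense gene Hmgxb3 overlaps 15.1% of its exon bases. Adgre1, the F4/80 antigen, measured 1.06 and 1.39 CPM in knockouts, against 1.257 and 0.71 CPM in controls. Tyrobp and Fcer1g, adaptors that signal for receptors of myeloid and NK cells, overlapped between groups: Tyrobp measured 0.97 and 0.43 CPM in knockouts, against 1.02 and 0.54 CPM in controls. Fcer1g measured 1.20 and 0.72 CPM in knockouts, against 0.90 and 0.81 CPM in controls. Aif1, a calcium-binding protein of macrophages, had 8 and 0 counts in knockouts, against 3 and 3 in controls, so knockout 2 had none. Cx3cr1, the fractalkine receptor, had 13 and 6, against 7 and 6.

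Cd68, a lysosomal glycoprotein, was high in knockout 2. It measured 4.92 and 12.8 CPM in knockouts, against 3.95 and 3.69 CPM in controls. The groups did not overlap, and the log2 fold change was 1.21 ± 0.47, with a 95% interval of 0.08 to 2.35 (edgeR adjusted p = 0.45). It was 0.37 without knockout 2 and 1.74 without knockout 1. Knockout 2 was also the library with 18 of the 27 C1q counts, while Csf1r in it was 5.51 CPM, against 5.33 CPM in control 1. Cd163 and Adgre1 were highest there too, with 7 counts and 1.39 CPM. Aif1 had no count there, and Tyrobp (0.43 CPM) and Fcer1g (0.72 CPM) were lowest there. The C1q genes, Mrc1, Cd163 and Lyz2 together had 4 and 27 counts in knockouts, against 3 and 31 in controls. The 12 other macrophage genes summed to 8.83 and 9.63 CPM in knockouts, against 9.28 and 7.65 CPM in controls, with Mrc1 at 0 throughout. Their part in the Cd68 value was not tested.

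**Figure D5:**
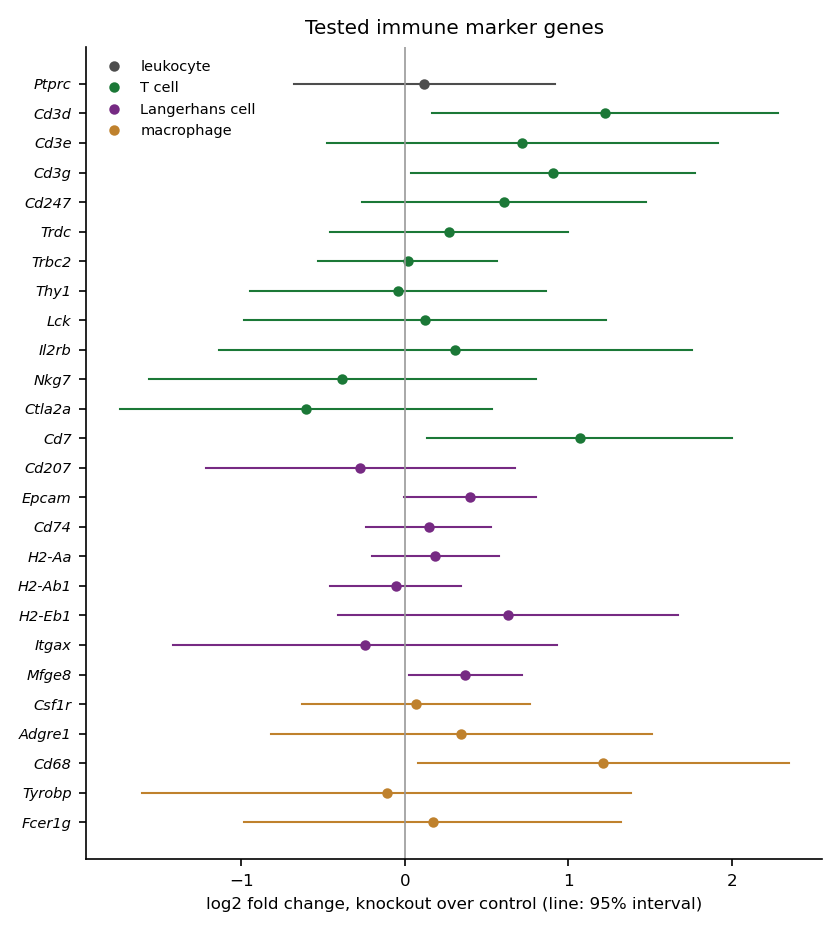
Log2 fold change, knockout over control, of the 26 tested genes with 95% intervals from edgeR. Cd3d, Cd68, Cd7 and Cd3g lie farthest right, and none of the 26 passed after adjustment over all 14259 tested genes.

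Across the list, no immune gene was called in the knockouts. With edgeR's quasi-likelihood test at an adjusted p under 0.05, 0 of 26 tested members were called, where 0.00701% of all 14259 tested genes were. That was 1 gene, the ribosomal protein pseudogene Rps26-ps1, named after its value was seen. The lowest adjusted p among members was 0.43. At an unadjusted p under 0.05 there were 5 members (Cd3d, Cd3g, Cd7, Mfge8 and Cd68), or 19.2%, against 10.7% of all tested genes. Of these, Mfge8 and Cd68 are also made by other skin cells. DESeq2 called 0 of 26 members and 0.58% of all genes with an adjusted p. edgeR without a count filter called 1 of 37 members, Cd68 (adjusted p = 0.017), where 1.79% of all genes were called.

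Direction was read against the same counts over all genes. Of the 26 tested members, 10 were higher in both knockouts than in both controls (38.5%), against 21.3% of all tested genes, and 1 was lower in both (3.85%), against 23.6%. The 10, read in CPM, were Cd3d, Cd3e, Cd3g, Cd247, Trdc, Cd7, Epcam, H2-Aa, Mfge8 and Cd68. In TPM, H2-Aa overlapped, at 15.1 and 14.3 in knockouts, against 14.6 and 14.4 in controls. So did Epcam, at 184 and 255 TPM in knockouts, against 192 and 180 TPM in controls. The log2 fold change was above 0 for 19 of 26 (73.1%), against 47.5% of all tested genes, with a median of 0.18, against a median of -0.02 over all tested genes. Medians were 0.29 for the 12 tested T cell genes, 0.16 for the 8 Langerhans cell genes and 0.17 for the 5 macrophage genes. Members that failed the count filter are not in these counts. Cd3d, Cd3e, Cd3g, Cd247 and Trdc encode parts of 1 receptor complex. Epcam, Mfge8 and Cd68 are among the 5 genes that other skin cells also make. Ctla2a, the 1 gene lower in both knockouts, is too.

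Wider lists of the same cell types were read beside the members, and their counts above 0 stand against the same 47.5% of all tested genes. Of 36 further T cell genes in the table, 17 were tested and 0 called, with 11 above 0 and a median log2 fold change of 0.28. The 3 of highest TPM were Rora, a nuclear receptor that other cells also make (log2 fold change -0.26 ± 0.25), Tcrg-C1 (0.68 ± 0.45) and the chemokine Xcl1 (-0.42 ± 0.51). The co-receptors Cd4 and Cd8a had 4 counts and 1 count in all, and Cd28, a costimulatory receptor, had none. Itgae, the integrin CD103 that anchors T cells in epithelium, measured 2.39 and 2.44 CPM in knockouts, against 1.68 and 1.83 CPM in controls. Itgae, Cd4, Cd8a and Cd28 were chosen after their values were seen.

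Of 25 further Langerhans cell genes, 12 were tested and 0 called, with 6 above 0 and 6 below. Cd24a, a surface glycoprotein also on keratinocytes, measured 384 and 565 CPM in knockouts, against 257 and 301 CPM in controls (log2 fold change 0.76 ± 0.21, edgeR adjusted p = 0.43). Ptgs1, a prostaglandin synthase, gave -0.32 ± 0.53, and H2-DMb1, a chain of the class II peptide exchanger, 0.35 ± 0.21. Of 22 further macrophage genes, 7 had no count, 5 were tested and 0 called, with 2 above 0 and 3 below. Among those of highest TPM were Mertk (-0.68 ± 0.17), a receptor for dying cells, and the lipid receptor Cd36 (-0.59 ± 0.58), both also known from other cells of skin.

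Of 22 further genes of all leukocytes, 18 were tested and 0 called, with 10 above 0, 8 below and a median of 0.08. Arhgdib gave 0.12 ± 0.14 and Coro1a, an actin regulator, 0.21 ± 0.27. Dock8, a Cdc42 activator, gave -0.75 ± 0.14 (edgeR adjusted p = 0.43), with 19.6 and 18.5 CPM in knockouts, against 33.8 and 30.6 CPM in controls. Across the libraries, Arhgdib measured 48.5 to 53.7 TPM and Dock8 5.38 to 10.9 TPM. Ptprc measured 0.39 to 0.49 TPM. Whether the RNA of Arhgdib and Dock8 came from leukocytes was not tested. Of 22 genes of B cells, neutrophils, mast cells and NK cells, 13 had no count and 2 were tested, Gata3 (-0.25 ± 0.19) and Kit (0.99 ± 0.56). Both are also made by cells other than leukocytes.

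Markers of other compartments varied across the same libraries. Interfollicular differentiation genes summed to 8585 and 3994 CPM in knockouts, against 13024 and 4459 CPM in controls. Red cell genes summed to 13.5 and 7.81 CPM in knockouts, against 4.73 and 6.16 CPM in controls, with the groups apart. Of the 6 red cell genes, 4 were tested, 4 had a log2 fold change above 0 and 0 were called. Endothelial genes summed to 7.68 and 20.9 CPM in knockouts, against 26.6 and 9.18 CPM in controls. Fibroblast genes summed to 136 and 141 CPM in knockouts, against 183 and 233 CPM in controls, also apart and in the opposite direction to red cell genes. Sebaceous genes summed to 378 and 248 CPM in knockouts, against 615 and 378 CPM in controls, and 8 of the 9 had a log2 fold change below 0. Melanocyte genes summed to 14.2 and 15.04 CPM in knockouts, against 10.1 and 17.1 CPM in controls. Log2 fold changes above 0 were held by 0 of 9 interfollicular, 1 of 9 sebaceous and 4 of 4 red cell genes tested. For endothelial, fibroblast and melanocyte genes the counts were 1 of 5, 2 of 5 and 1 of 4. Over all tested genes the share above 0 was 47.5%. Taken singly, 21.3% of all tested genes were higher in both knockouts and 23.6% were lower in both. None of the tested genes of these lists was called. Their part in the values of the immune genes was not tested.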

How the data were processed

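Expression was measured by directional, polyA-selected RNA sequencing of bulge cells in 2 knockout and 2 control libraries. The authors deposited a table of whole-number counts for each gene and library. Trim Galore 0.6.0, cutadapt, FastQC, STAR 2.7.0e, DESeq2 1.26.0 and GRCm38 (mm10) are named in the submitters' processing notes. Which counter was used, with which strand setting and annotation, is not given in the sources used. All 55536 identifiers matched GENCODE M21, which gave symbols, positions, exon lengths and sequences.

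Counts were filtered with edgeR 4.0.16's filterByExpr (R 4.3.3), leaving 14259 genes, scaled with TMM and tested with the quasi-likelihood test across all genes, with Benjamini-Hochberg adjustment at 0.05. Members took their rows from that fit. CPM used effective library sizes, and TPM used exon union length. SEs are log2 fold change over the root of F. DESeq2 1.42.0, limma 3.58.1 (voom) and other settings were alternatives. The fit was tested on simulated counts. The members and lists were chosen with earlier results of these data known. Every member may be named, and of wider lists the 3 tested genes of highest TPM. One such gene is not reported here. Other names were chosen after values were seen.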

Additional observations from a re-analysis of the deposited data

How the results depend on the processing

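Calls over all genes depended on the setting: 1 in the main fit, 430 without a count filter, 80 with DESeq2, 106 with the replicate number as a block, 2 after a length and GC trend was taken out, and 1 to 65 with a library left out. Members called were 0 in each of these except the fit without a filter, which called 1, Cd68 (log2 fold change 1.20, edgeR adjusted p = 0.017). The block fit called 0 of 26 members, where 0.743% of all genes were called. Same-numbered libraries deviated together with a correlation of 0.12 over all tested genes, and the labels do not say that numbers pair the mice. Of 301 refits of single members, 281 kept the sign. The signs that turned belonged to 13 of the 26 members, and with libraries left out their log2 fold changes ran as follows: Adgre1 (-0.018 to 0.78), Cd207 (-0.56 to 0.085), Csf1r (-0.093 to 0.23), Fcer1g (-0.25 to 0.49), H2-Ab1 (-0.19 to 0.11), H2-Eb1 (-0.12 to 1.12), Il2rb (-0.34 to 1.14), Itgax (-0.58 to 0.14), Lck (-0.0896 to 0.46), Ptprc (-0.039 to 0.26), Thy1 (-0.69 to 0.40), Trbc2 (-0.17 to 0.18), Tyrobp (-0.80 to 0.37). After removal of the length and GC trend, Trbc2 was -0.039. The signs of Cd3d (1.04 to 1.42), Cd3g (0.62 to 1.27), Cd7 (0.68 to 1.37) and Trdc (0.26 to 0.30) held with each library left out. So did those of Ctla2a (-0.97 to -0.32) and Nkg7 (-0.80 to -0.070), both below 0. The signs of Cd247, Cd3e, Cd68, Cd74, Epcam, H2-Aa and Mfge8, all above 0, held as well. The cause of these changes was not tested. At low counts, as for Cd2 or C1q, differences were not detectable at this depth.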

Other observations

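Genes of the class II peptide exchanger differed between libraries as well. H2-DMb2 measured 2.90 and 0.38 CPM in knockouts 1 and 2, against 1.80 and 2.17 CPM in controls 1 and 2, so knockout 2 was the lowest library. H2-DMb1 measured 16.1 and 22.7 CPM in knockouts, against 15.1 and 15.2 CPM in controls. Ciita, the class II transactivator, measured 1.84 and 2.11 CPM in knockouts, against 2.10 and 1.46 CPM in controls. All genes in this section were named after their values were seen.

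Csf2ra, a receptor chain for granulocyte-macrophage colony-stimulating factor, measured 4.05 and 3.74 CPM in knockouts, against 9.22 and 5.49 CPM in controls (log2 fold change -0.91 ± 0.33, edgeR adjusted p = 0.43). Cd96, a receptor of T and NK cells, measured 1.65 and 1.53 CPM in knockouts, against 0.78 and 0.85 CPM in controls (log2 fold change 0.96 ± 0.40, edgeR adjusted p = 0.46).

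The summed interfollicular genes ordered the libraries, from low to high, as knockout 2, control 2, knockout 1 and control 1. Of the 26 tested members, 2 had that order, Cd207 and Tyrobp (7.69%), against 4.85% of all tested genes. Whether Langerhans cell RNA followed interfollicular epidermis was not tested.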
